A study of Mus musculus with 6 samples.

Results

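Fgf21, its co-receptor Klb, the receptors Fgfr1 to Fgfr4 and the liver-secreted proteins Angptl4, Angptl6 and Ahsg were examined in mouse liver with and without SIRT1, an NAD-dependent protein deacetylase. The genes were chosen by name, 9 of the 27962 gene names in the array's own annotation, and every probe that it assigns to one of them was taken, which gave 21 of 41174 probes. A probe was tested where all 3 arrays of either genotype read it well above background, which held for 20 of the 21 and for 23591 probes in all. The SIRT1 LKO mice carry a liver-specific deletion of SIRT1 and were compared with Lox control mice. Both groups were males aged 10 weeks in a 95% C57BL/6 background that ate chow freely and were killed at 4 pm. The sources used here name neither the Cre driver nor the deleted exons. RNA of 2 mice was pooled for each array, so that 3 pools stand for the 6 mice of each genotype, and nothing is known of single animals.

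Fibroblast growth factor 21 is a hormone that the liver makes under control of PPAR-alpha, and it acts through an FGF receptor paired with beta-Klotho, the product of Klb. In hepatocytes the main receptor is Fgfr4, which with beta-Klotho also receives the gut hormone Fgf15 and so restrains bile acid synthesis. Angptl4 inhibits lipoprotein lipase and is another PPAR-alpha target, Angptl6 (angiopoietin-related growth factor) is a circulating protein of the liver, and Ahsg encodes fetuin-A, an abundant plasma glycoprotein that binds mineral and inhibits the insulin receptor kinase. Fewer cells of a type and less RNA per cell cannot be told apart in these whole-liver pools.

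The sequences of 5 probes are printed to show what they bind, each 5′ to 3′ on the strand named, as in the authors' scanner files. Whether any difference depends on the site bound was not tested. The first Fgf21 probe and the Angptl6 probe are 60 bases long but span 615 and 1153 bases of the mm7 genome, so each reads spliced RNA across a gap. The Fgfr1 pair overlaps by 39 bases with 1 mismatch, shown in capitals (A57G, counted from the first base of A_51_P109469). The Fgfr4 probe was designed on a transcript that the array's annotation describes as splice variant 17b, and it is shown because it differed in sign from the reference probe of Fgfr4, as the other probe of that transcript did. No annotation on mm7 was used here, so whether these 2 probes read a spliced isoform or unspliced RNA is unknown, and they are called variant probes only after the transcript they were designed on.
Fgf21 A_51_P315925, chr7:41790404-41791018, mm7, minus strand: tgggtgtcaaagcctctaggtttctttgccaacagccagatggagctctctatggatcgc
Fgfr1 A_51_P109469, chr8:24330044-24330103, mm7, plus strand: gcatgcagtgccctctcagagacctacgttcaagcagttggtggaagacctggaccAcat
Fgfr1 A_52_P668810, chr8:24330065-24330124, mm7, plus strand: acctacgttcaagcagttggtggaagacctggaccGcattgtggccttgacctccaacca
Fgfr4 A_52_P686383, chr13:54250254-54250313, mm7, plus strand: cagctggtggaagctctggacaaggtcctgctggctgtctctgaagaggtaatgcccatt
Angptl6 A_52_P319199, chr9:20750623-20751775, mm7, minus strand: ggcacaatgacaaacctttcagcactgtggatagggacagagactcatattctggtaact

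Each value below is a level, the log2 intensity of a probe relative to the 75th percentile of its array, and each difference is SIRT1 LKO minus Lox control on that scale with the standard error (SE) and adjusted p of limma, a linear model with a moderated spread, after Benjamini-Hochberg adjustment over the 23591 tested probes. Levels of different probes are not comparable, since probes differ in binding. The 75th percentile of intensity was 1007, 1018 and 1289 in LKO pools 1, 2 and 3, against 1031, 1005 and 1056 in control pools 1, 2 and 3. The share of probes well above background was 60.2% to 66.4% in LKO pools and 52.2% to 64.4% in control pools. All 8 hepatocyte markers were tested, at a mean level of 6.77 to 7.03 in LKO pools and 6.78 to 6.94 in control pools, with 0 called. For LKO pool 3 the deposited value table and the scanner file hold different numbers (0.853% of probes equal within 1%, against 99.8% in each of the other 5 pools), and the gap was 0.32 at the median tested probe of the 9 genes, against 0.25 over all tested probes. Values from the value table, and from the fit that leaves LKO pool 3 out, are given beside many of the results. No slide held both genotypes: LKO pools 1 and 2 shared a slide, LKO pool 3 came from another, and the 3 control pools from 1 further slide, so the slide of the controls and their genotype cannot be told apart. Sirt1 itself, by its brighter probe, read -0.07, 0.09 and 0.16 in LKO pools 1, 2 and 3, against 0.29, 0.37 and 0.24 in the controls (difference -0.24, SE 0.10, adjusted p = 0.243), and by the other -0.80, -0.85 and -0.48, against -0.76, -0.64 and -0.67. The brighter probe was lower in every LKO pool, the other overlapped, and since the deleted exons are unknown here, neither probe checks the genotype labels.

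None of the 20 tested probes of the 9 genes passed an adjusted p of 0.05, where the lowest was 0.137, and with the slide as a random block the lowest was 0.429. Over the array as a whole, 0.0636% of tested probes passed (15 probes), 1 of them higher in LKO livers (0.00424%) and 14 lower (0.0593%). At an unadjusted p under 0.05 there were 3 of the 20 (Fgfr1 A_52_P668810, Fgfr3 A_51_P322906 and Fgfr4 A_51_P408100), against 21.2% of all tested probes. The pools of the genotypes did not overlap in 6 of the 20, with 4 wholly above and 2 wholly below, against 28.9% of all tested probes (14.9% above and 13.9% below). With 10 probes higher and 10 lower, against 47.3% lower over all tested probes, the median difference was 0.03, against 0.02. These counts lay close to the background, some a little above it and some below, and are no result about these genes. Of the 20, 4 had an unadjusted p under 0.05 with the value table, against 26.3% of all tested probes, and 8 did not overlap there, against 34.1%. Leaving out LKO pool 3 gave 5 of 20 with an unadjusted p under 0.05, against 29.4%, and 0 calls over the whole array. The 95% intervals of the differences still allowed ratios of LKO to control of between 0.442 (an Fgfr2 probe) and 1.93 (an Fgf21 probe). Of the 20 probes, 18 were well above background on all 6 arrays, while Klb A_52_P203368 and Fgfr1 A_52_P136162 reached that on all 3 LKO arrays and on 1 of 3 control arrays. Those 2 entered the test through the LKO group alone. The plot of levels by pool shows all 20 probes.

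**Figure D1:**
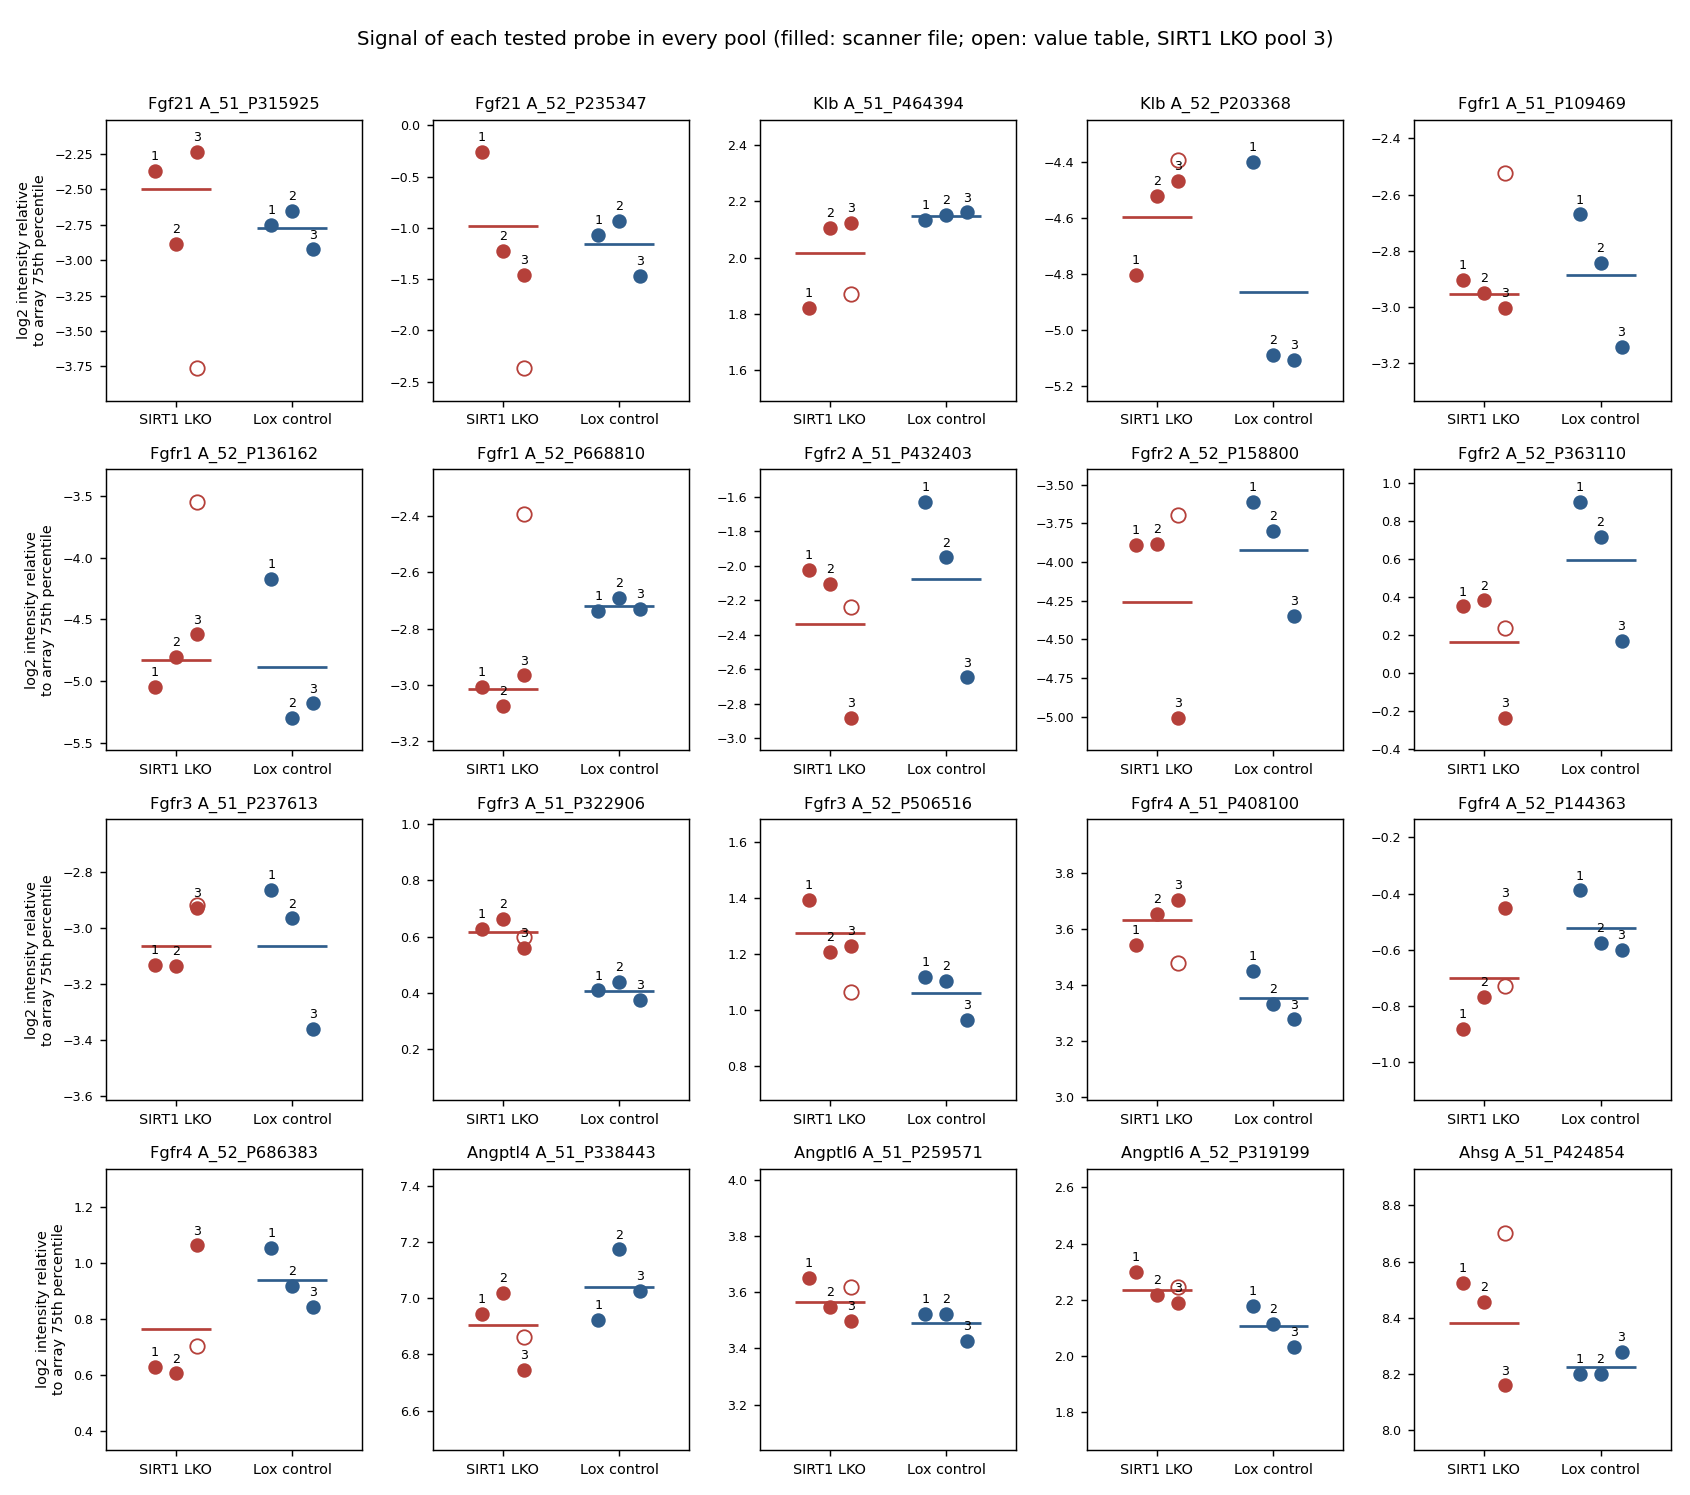
Level (log2 intensity relative to the array's 75th percentile, y axis) of the 20 tested probes in each pool, SIRT1 LKO (red) left of Lox control (blue), with pool numbers and a bar at the mean of 3 pools. Open circles give LKO pool 3 as in the value table. Every panel covers at least 1 log2 unit but has its own range; the groups are apart in 6 panels, and the 3 Fgfr2 panels share low values in LKO pool 3 and control pool 3.

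The brighter of 2 probes for the hormone Fgf21 (A_52_P235347, chr7:41790029-41790088, mm7, minus strand) read -0.26, -1.23 and -1.46 in LKO pools 1, 2 and 3, against -1.07, -0.93 and -1.47 in control pools 1, 2 and 3. LKO pool 1 stood above all other pools, at an intensity of 841 against 382 to 528 in the controls, while LKO pools 2 and 3 lay inside the control range. The genotypes overlapped (means -0.98 ± 0.64 and -1.16 ± 0.28, SD, n = 3 each; difference 0.17, SE 0.33, adjusted p = 0.79). The second Fgf21 probe, which spans the gap, read -2.37, -2.89 and -2.24 in the LKO pools, against -2.75, -2.65 and -2.92 in the controls. It placed LKO pools 1 and 3 above the controls and LKO pool 2 inside their range (difference 0.28, SE 0.19, adjusted p = 0.424). Thus the 2 probes put LKO pool 3 in different places, at the low end in one and at the top in the other. In the value table LKO pool 3 was lowest in both, at -2.37 and -3.76, and the differences became -0.13 (adjusted p = 0.89) and -0.23 (adjusted p = 0.694). Without LKO pool 3 they were 0.41 and 0.15. Leaving out LKO pool 1 turned the brighter probe to -0.19. The direction of Fgf21 therefore depended on the source for both probes, and on the pools used for the brighter probe only.

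Klb encodes beta-Klotho, which gives FGF receptors their affinity for Fgf21 and Fgf15. Its main probe (A_51_P464394, chr5:64738498-64738557, mm7, plus strand) read 1.82, 2.11 and 2.12 in LKO pools 1, 2 and 3, against 2.14, 2.15 and 2.16 in the controls. The LKO pools lay wholly below, although pools 2 and 3 missed the lowest control by little and pool 1 carried most of the gap. The mean was 2.02 ± 0.17 in LKO livers and 2.15 ± 0.01 in control livers (difference -0.13, 95% interval -0.40 to 0.14, adjusted p = 0.524). The difference was -0.22 with the value table (adjusted p = 0.229), and it was -0.19 in the fit of LKO pools 1 and 2 alone. The second Klb probe (A_52_P203368, chr5:64704551-64704610) was designed on a transcript described as a putative truncated isoform. It read -4.80, -4.52 and -4.47 in the LKO pools, against -4.40, -5.09 and -5.11 in the controls. Those are intensities of 36.1 to 58.2 in LKO pools and 29.5 to 48.8 in control pools, near background, and the groups overlapped (difference 0.27, SE 0.22, adjusted p = 0.504).

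Fgfr1 is the receptor through which Fgf21 acts in adipose tissue, and it was covered by 4 probes. The lowest p among the 9 genes belonged to A_52_P668810, which read -3.01, -3.07 and -2.97 in LKO pools 1, 2 and 3, against -2.74, -2.69 and -2.73 in the controls. The LKO pools were tightly grouped and wholly below (-3.02 ± 0.05 and -2.72 ± 0.03, difference -0.30, 95% interval -0.51 to -0.09, adjusted p = 0.137). The spread within groups was unusually small, with an SD that was lower in 1.5% of tested probes only. In the value table LKO pool 3 read -2.39, above every control, and the difference was -0.11 (adjusted p = 0.748). Without LKO pool 3 it was -0.32 (adjusted p = 0.0844). With normexp, another background correction, it was only -0.048 (adjusted p = 0.982). The printed partner probe A_51_P109469, which shares 39 bases with it and is spotted 10 times, read -2.91, -2.95 and -3.00 in the LKO pools, against -2.67, -2.84 and -3.14 in the controls. It overlapped between genotypes because of control pool 3 (difference -0.07, adjusted p = 0.81), so the separation seen by one probe was not seen by its neighbour. Its spots agreed to an SD of 0.06 to 0.13 within an array, less than the SD of 0.24 between control pools. The SD between LKO pools was 0.05. Each pool value is an average over spots, so this SD cannot be set directly against that of single spots. The other tested Fgfr1 probe, A_52_P136162 (chr8:24326167-24326226), was dim, read -5.05, -4.81 and -4.62, against -4.17, -5.30 and -5.18, and overlapped (difference 0.06, adjusted p = 0.931). By the value table A_51_P109469 differed by 0.10 and A_52_P136162 by 0.42, and without LKO pool 3 by -0.04 each. The untested A_52_P552062 (chr8:24288465-24288524) was above background on 1 of 3 LKO arrays and on 0 control arrays.

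Fgfr2, a receptor known mainly from epithelia, held the 2 largest differences among the 20 probes, within a wide spread. The brightest of its 3 probes (A_52_P363110, chr7:126278278-126278337, mm7, minus strand) read 0.35, 0.38 and -0.24 in LKO pools 1, 2 and 3, against 0.90, 0.72 and 0.17 in the controls. The second (A_51_P432403, chr7:126279021-126279080) read -2.02, -2.11 and -2.88, against -1.63, -1.95 and -2.65. The third (A_52_P158800, chr7:126407714-126407773) read -3.89, -3.88 and -5.01, against -3.61, -3.80 and -4.35. In all 3 probes LKO pool 3 was the lowest of the LKO pools and control pool 3 the lowest of the controls, and the genotypes overlapped. The differences were -0.43 (SE 0.25, adjusted p = 0.359), -0.26 (SE 0.33, adjusted p = 0.68) and -0.34 (SE 0.35, adjusted p = 0.604). For A_51_P432403, spotted 10 times, the SD between spots of an array was 0.06 to 0.09, while the SD between pools was 0.47 in LKO and 0.52 in control livers, so the pools differed by far more than the spots. In the value table LKO pool 3 was 0.47, 0.64 and 1.31 higher than in the scanner file at these probes, and the differences were -0.27, -0.05 and 0.10. Without LKO pool 3 they were -0.23, 0.01 and 0.03.

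Fgfr3 was higher in LKO livers by 2 of its 3 probes, neither past the threshold. The probe A_51_P322906 (chr5:32799418-32799477, mm7, plus strand) read 0.63, 0.66 and 0.56 in LKO pools 1, 2 and 3, against 0.41, 0.44 and 0.37 in the controls. Every LKO pool lay above every control pool by more than the spread within either group (0.62 ± 0.05 and 0.41 ± 0.03, difference 0.21, 95% interval 0.003 to 0.418, adjusted p = 0.232). Here the sources were alike, with a difference of 0.22 in the value table (adjusted p = 0.136), and of 0.24 when LKO pool 3 was left out (adjusted p = 0.132). A_52_P506516, which shares 37 bases with it and so is no independent measure, read 1.39, 1.21 and 1.23, against 1.12, 1.10 and 0.97 (difference 0.21, SE 0.10, adjusted p = 0.279). It was also wholly above, although in the value table LKO pool 3 read 1.06 and the groups overlapped. The third probe, A_51_P237613 (chr5:32798913-32798972), was dimmer and read -3.13, -3.14 and -2.93, against -2.87, -2.97 and -3.36. The LKO pools lay inside the control range (difference 0.00, 95% interval -0.37 to 0.37, adjusted p = 0.995).

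Fgfr4, the main FGF receptor of hepatocytes, differed in sign between its own probes. The probe for its reference transcript (A_51_P408100, chr13:54251006-54251065, mm7, plus strand) read 3.54, 3.65 and 3.70 in LKO pools 1, 2 and 3, against 3.45, 3.33 and 3.28 in the controls. The LKO pools lay wholly above (3.63 ± 0.08 and 3.35 ± 0.09, difference 0.28, 95% interval 0.04 to 0.52), yet limma's adjusted p was 0.184. The difference was 0.20 with the value table (adjusted p = 0.219), and leaving out LKO pool 3 gave 0.24 (adjusted p = 0.177). Both probes designed on the transcript described as variant 17b had differences below 0. The printed A_52_P686383 read 0.63, 0.61 and 1.06 in the LKO pools, against 1.05, 0.92 and 0.84 in the controls (difference -0.17, SE 0.15, adjusted p = 0.54). A_52_P144363 (chr13:54250389-54250448) read -0.88, -0.77 and -0.45, against -0.39, -0.58 and -0.60 (difference -0.18, SE 0.14, adjusted p = 0.492). In both, LKO pools 1 and 2 were below the controls, while LKO pool 3 lay just above them by the first and among them by the second. By the value table LKO pool 3 lay below the controls too, and the differences were -0.29 (adjusted p = 0.116) and -0.27 (adjusted p = 0.148). Leaving that pool out gave -0.32 and -0.30 (adjusted p of 0.115 and 0.143).

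The ratio of the Fgfr4 reference probe to each variant probe was then computed within each array, a comparison chosen after the values were seen. Against A_52_P686383 the log2 ratio was 2.91, 3.05 and 2.64 in LKO pools 1, 2 and 3, against 2.40, 2.42 and 2.44 in the controls. Against A_52_P144363 it was 4.43, 4.42 and 4.15, against 3.84, 3.91 and 3.88. Both ratios were higher in every LKO pool than in any control pool. They share the reference probe, and the variant probes share a transcript, so the ratios are not independent measures. The controls, which shared a slide, held them within a narrow band (SD 0.02 and 0.03). The differences were 0.45 and 0.46, each with a two-sided exact permutation p of 0.1, the smallest that 3 against 3 pools can give, and an adjusted p of 0.429 over the 15 pairs of tested probes within the 9 genes. From the value table they were 0.50 and 0.48, and the groups stayed apart. The ratio of the 2 variant probes to each other was 1.51, 1.37 and 1.51 in LKO pools, against 1.44, 1.49 and 1.45, and overlapped. Among the 10231 pairs of tested probes of one gene on the whole array, 31.6% did not overlap between genotypes, and 20.3% and 19.9% had a larger difference than these 2. In that setting the Fgfr4 ratios were not unusual. Of the 15 pairs, these 2 alone did not overlap in the scanner files, while A_52_P363110 of Fgfr2 with each of the other Fgfr2 probes gave 2 more pairs without overlap by the value table. In the scanner files the Fgfr1 pair that shares 39 bases differed by -0.23 with overlapping groups (exact permutation p = 0.2).

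**Figure D2:**
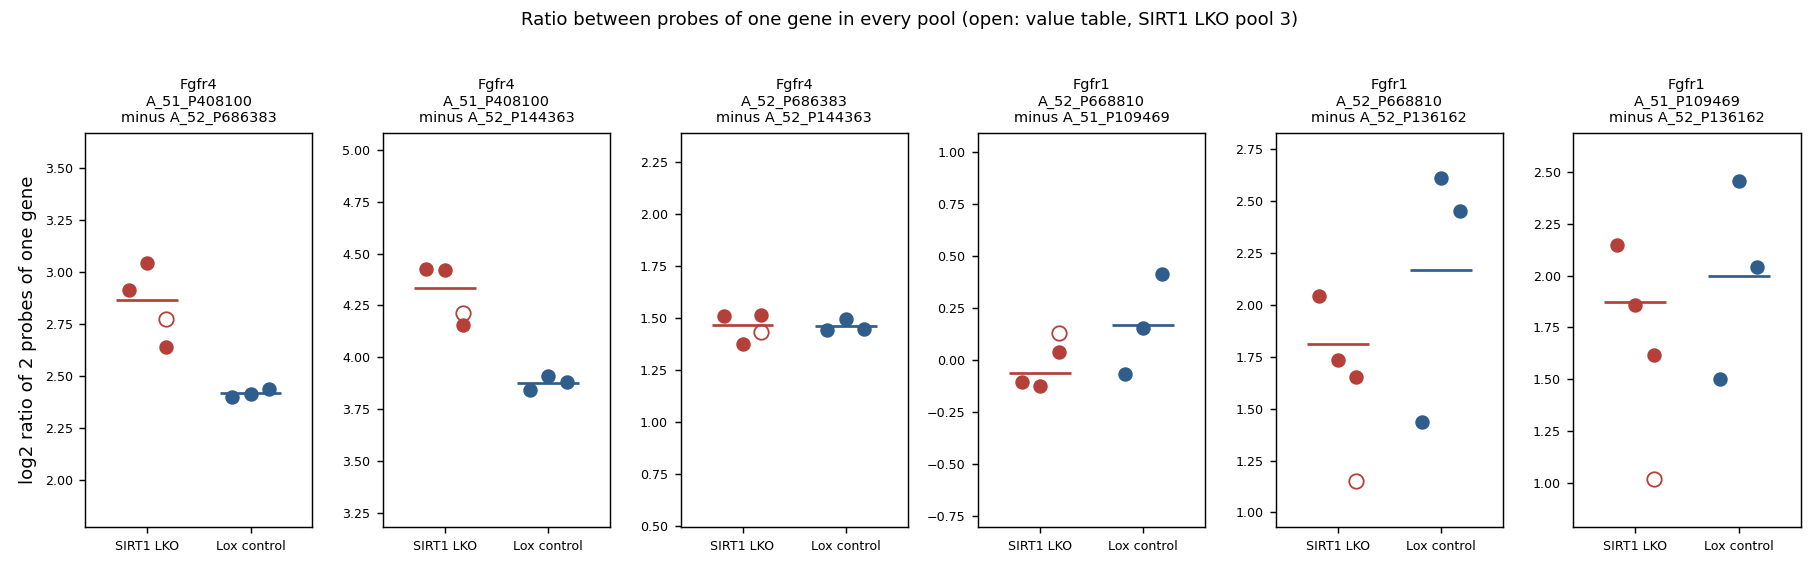
Log2 ratio of 2 probes of one gene within each pool (y axis; each panel spans the same number of log2 units at its own height), SIRT1 LKO (red) left of Lox control (blue), bars at means of 3 pools, open circles for LKO pool 3 in the value table. Both ratios of the Fgfr4 reference probe to a splice variant probe are higher in the LKO pools (2.64 to 3.05 and 4.15 to 4.43) than in the control pools (2.40 to 2.44 and 3.84 to 3.91), while the ratio of the variant probes to each other and the 3 Fgfr1 ratios overlap.

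Among the other secreted proteins, Angptl4 was measured by 1 probe (A_51_P338443, chr17:31849774-31849833, mm7, minus strand). It read 6.95, 7.02 and 6.75 in LKO pools 1, 2 and 3, against 6.92, 7.17 and 7.03 in the controls. The groups overlapped, with LKO pool 3 the lowest and control pool 2 the highest (6.90 ± 0.14 and 7.04 ± 0.13, difference -0.14, 95% interval -0.42 to 0.15, adjusted p = 0.535). The interval corresponds to a ratio of LKO to control between 0.746 and 1.11. The difference was -0.10 by the value table and -0.06 when LKO pool 3 was left out. With normexp background correction it was -0.36 (adjusted p = 0.792). Angptl4 is also made by adipose tissue, and 4 of 8 adipose markers were tested here, with a mean level of 0.81 to 1.81 in LKO pools and 1.96 to 2.72 in control pools, 0 called. Of these 4, Cfd (adipsin) differed by -3.44 (adjusted p = 0.114), Car3 by -0.57 (adjusted p = 0.195), Fabp4 by 0.29 (adjusted p = 0.187) and Cidec by 0.00 (adjusted p = 0.993). Cfd was above background on 2 of 3 LKO arrays and entered the test through the controls. The gap in the mean level of the 4 markers rests mostly on Cfd. Adipoq, Lep, Plin1 and Retn were not well above background on all arrays of either genotype. The part of adipose tissue in the Angptl4 value was not tested.

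Angptl6 had 2 probes. A_51_P259571 (chr9:20750438-20750497, mm7, minus strand) read 3.65, 3.55 and 3.50 in the LKO pools, against 3.52, 3.52 and 3.43 in the controls (difference 0.07, SE 0.09, adjusted p = 0.679). The printed probe across the gap, A_52_P319199, read 2.30, 2.22 and 2.19, against 2.18, 2.11 and 2.03 (difference 0.13, 95% interval -0.09 to 0.35, adjusted p = 0.459). The lowest LKO pool lay just above the highest control pool by the second probe and inside the control range by the first, and the 95% intervals of both lay within ratios of LKO to control of 0.903 to 1.27. With the value table both were wholly above, by 0.11 and 0.15, with adjusted p of 0.408 and 0.308.

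Ahsg, the fetuin-A gene, was read by A_51_P424854 (chr16:22560686-22560745, mm7, plus strand). Its level was 8.52, 8.46 and 8.16 in LKO pools 1, 2 and 3, against 8.20, 8.20 and 8.28 in the controls. LKO pools 1 and 2 lay above every control and LKO pool 3 below every control (8.38 ± 0.19 and 8.23 ± 0.05, difference 0.16, 95% interval -0.14 to 0.45, adjusted p = 0.493). In the value table LKO pool 3 was instead the highest at 8.70, so the LKO pools were wholly above (difference 0.34, adjusted p = 0.0992), where 1.31% of all tested probes were called. Without LKO pool 3 the difference was 0.27 (adjusted p = 0.12). No array was saturated at this probe. The plot of genotype differences sets the 3 versions side by side.

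**Figure D3:**
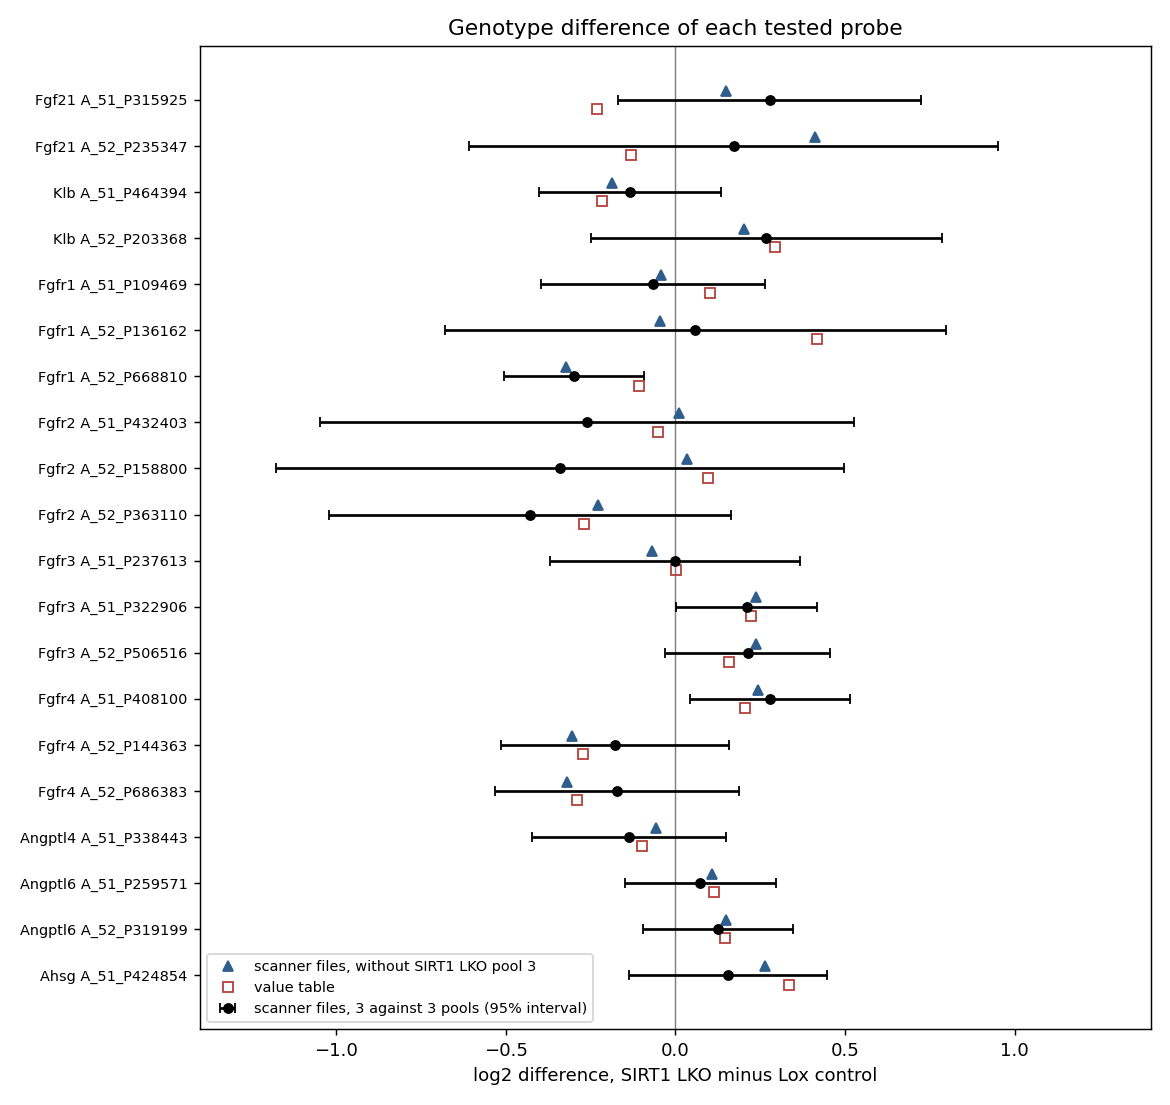
Genotype difference (SIRT1 LKO minus Lox control, log2, x axis) of the 20 tested probes. Black points with bars are the scanner files with the 95% interval, blue triangles leave out LKO pool 3, and red squares use the value table. 17 intervals include 0. Those of Fgfr1 A_52_P668810, Fgfr3 A_51_P322906 and Fgfr4 A_51_P408100 do not, none of them past the adjusted threshold. With the value table both Fgf21 probes, Fgfr1 A_51_P109469, Fgfr2 A_52_P158800 and Fgfr3 A_51_P237613 change sign.

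The genes around this axis were read from 8 lists by the brightest tested probe of each gene. Of the 16018 genes tested in this way 0.0812% were called, with a median difference of 0.02. Of 16 FGF ligands, co-receptors and the decoy receptor, 5 were tested and 0 called (median -0.06). Fgf15, the co-receptor Kl and 9 others were not tested. The smallest p-values belonged to Fgf18, a paracrine FGF, which read -3.77, -3.63 and -3.29 in LKO pools, against -2.83, -3.01 and -3.13 in control pools (difference -0.58, adjusted p = 0.125). Next was Fgf23, the phosphate hormone of bone, at -3.26, -3.14 and -3.24, against -2.60, -2.87 and -2.93 (difference -0.42, adjusted p = 0.132). Both were wholly below in LKO livers in the scanner files. With the value table Fgf23 differed by -0.26. Fgfrl1, the decoy receptor without a kinase, differed by 0.09 (adjusted p = 0.608), though the value table put it at -0.07.

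Of 25 genes of FGF receptor signal transduction, 24 were tested, 13 higher and 11 lower, with 0 called and a median of 0.01. The docking protein gene Frs3, which links receptors to the Ras cascade, read -0.99, -0.98 and -1.35 in LKO pools, against 0.09, -0.54 and 0.01 in control pools (difference -0.96, adjusted p = 0.093). In the scanner files every LKO pool of Frs3 was thus below every control pool. The value table held a smaller gap for Frs3, of -0.65 (adjusted p = 0.144). Map2k1, the kinase MEK1, differed by -0.28 (adjusted p = 0.209) and Plcg1, phospholipase C gamma, by 0.25 (adjusted p = 0.214, with 0.15 by the value table). The list's median was -0.03 by the value table. Of 15 feedback inhibitors and early response genes, whose transcripts FGF signalling induces, 12 were tested, with 5 higher, 7 lower, 0 called and a median of -0.03. In that list Il17rd differed by -0.30, Spry1 by 0.21 and Spry4 by 0.55 (adjusted p of 0.268, 0.349 and 0.445). The value table put Il17rd at -0.15 and Spry4 at 0.97 (adjusted p = 0.0727), and leaving out LKO pool 3 put Spry1 at 0.12 and Spry4 at 0.95 (adjusted p = 0.102). The list's median turned to 0.10 by the value table and 0.03 without that pool. Spry4 exceeded background clearly on 2 of 3 control arrays. Of the 6 bile acid genes that the Fgf15 and Fgfr4 route restrains or serves, 3 were higher and 3 lower, with 0 called and a median of 0.00. Slc10a1, the bile acid uptake carrier, read 6.07, 6.05 and 6.11 in LKO pools, against 5.75, 5.81 and 5.86 in control pools. In the scanner files its LKO pools thus lay wholly above (difference 0.27, adjusted p = 0.164). Nr0b2, the repressor SHP, differed by -1.05 with wide spread (SE 0.53, adjusted p = 0.299), and Abcb11, the bile salt export pump, by -0.27 (adjusted p = 0.501). Most of the Abcb11 difference came with LKO pool 3, since it was 0.005 by the value table and -0.036 without that pool. Slc10a1 differed by 0.18 and Nr0b2 by -0.52 by the value table, and the list's median was -0.06 there and -0.03 without LKO pool 3.

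Of 13 other angiopoietin-like and lipolysis genes 11 were tested, with 7 higher, 4 lower, 0 called and a median of 0.09. Lpl, the lipase that Angptl4 inhibits, read 0.03, 0.45 and -0.22 in LKO pools, against 1.01, 1.16 and 1.12 in control pools (difference -1.01, adjusted p = 0.0792). Its LKO pools lay wholly below in the scanner files, but with the value table the difference was -0.44 (adjusted p = 0.46). Apoa5, which helps lipase action at the vessel wall, differed by 0.25 and the lipase maturation factor Lmf1 by -0.19 (adjusted p of 0.186 and 0.36). Lmf1 was at -0.09 by the value table and at -0.10 when LKO pool 3 was left out, and the list's median was 0.06 by the value table. Of 25 other liver-secreted signalling proteins, 14 were higher and 11 lower, with 0 called and a median of 0.05. Lcn2, lipocalin 2, differed by 0.74, Lect2 by 0.34 and the activin antagonist Fst by -0.35 (adjusted p of 0.141, 0.179 and 0.259). Fst was at -0.013 by the value table and at -0.23 when LKO pool 3 was left out. The list's median was 0.13 by the value table and 0.08 without that pool.

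Of 15 transcriptional regulators of Fgf21 and Angptl4, 14 were tested, 7 higher and 7 lower, with 0 called and a median of -0.01. The clock repressor Nr1d1 read -1.67, -1.28 and -0.91 in LKO pools, against 0.20, 0.36 and -0.65 in control pools (difference -1.26, adjusted p = 0.114). Ppargc1a, the coactivator PGC-1alpha, differed by -0.75 and Rxra, the partner of PPAR-alpha, by 0.27 (adjusted p of 0.218 and 0.277). The list's median was -0.04 by the value table and 0.03 without LKO pool 3. Of 14 other PPAR-alpha targets 11 were lower and 3 higher, with a median of -0.29 (-0.19 without LKO pool 3), against 46.5% lower and a median of 0.02 over all genes. Vnn1, a pantetheinase, was the single gene called in the 8 lists. It fell to 1.80, 1.77 and 1.90 in LKO pools, against 2.86, 2.90 and 2.93 in control pools (difference -1.08, SE 0.09, adjusted p = 0.0288), but its adjusted p was 0.0782 with the value table, and 0.0524 with LKO pool 3 left out. No probe on the array, Vnn1 included, was called with the slide as a random block, with the replicate number as a block, with normexp, with no filter on dim probes, or without any one of LKO pools 1, 2 and 3 and control pool 1. The peroxisomal membrane protein gene Pex11a differed by -0.68 (adjusted p = 0.0663) and the omega-hydroxylase Cyp4a10 by -0.76 (adjusted p = 0.128). With the value table Cyp4a10 was the gene of this list that was called, at -0.97 (adjusted p = 0.0495). Fgf21 and Angptl4, PPAR-alpha targets too, differed by 0.17 and -0.14, as given above.

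**Figure D4:**
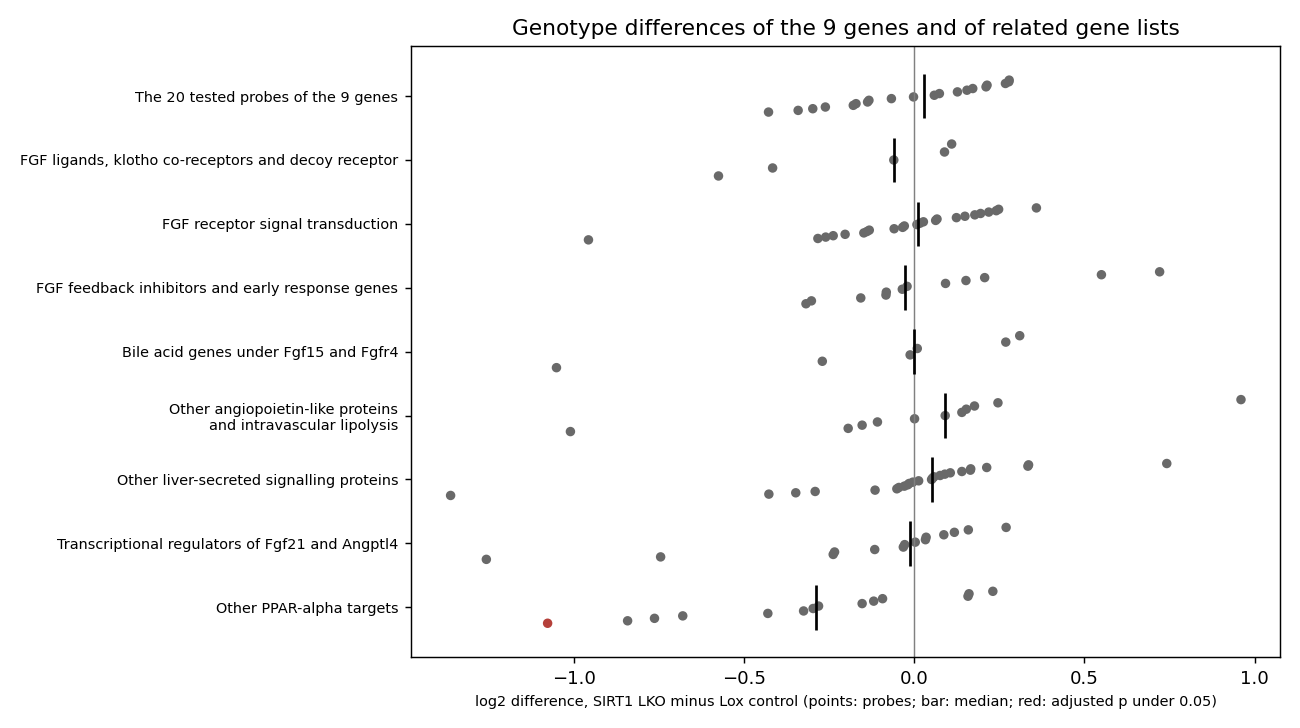
Genotype difference (SIRT1 LKO minus Lox control, log2, x axis) of the 20 tested probes of the 9 genes and, below, of the brightest tested probe of each gene in 8 related lists; bars mark medians and red marks an adjusted p under 0.05 (limma, over all tested probes). The medians run between -0.29 (other PPAR-alpha targets) and 0.09, and the single red point is Vnn1.

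Markers of other cell types were measured beside these genes. No marker list held a called gene. The 7 Kupffer cell markers had a median difference of -0.21 and the 7 endothelial markers 0.02, while 3 of 11 pancreatic acinar markers were tested, all lower (median -0.26). The value table put the Kupffer cell median at 0.18, the endothelial at -0.10 and the pancreatic at -0.10. Without LKO pool 3 the Kupffer cell median was -0.10 and the endothelial -0.20. The 9 stellate and mesenchymal markers had a median of -0.06, and the 6 cholangiocyte markers 0.13, with 5 higher and 1 lower. By the value table these 2 medians were -0.04 and 0.32, and without LKO pool 3 -0.11 and 0.23. The part of these cells in the differences of the 9 genes was not tested.

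The 3 probes whose levels ran most like those of Fgf21, Klb and Angptl4 were sought among 23546 tested probes by Pearson's r over the 6 pools, as a description. For Fgf21 (A_52_P235347) they belonged to Psmc5 (0.982), Hook3 (0.971) and Cadps2 (0.970), and 100 probes had r over 0.9. For Klb (A_51_P464394) those given here belonged to Pcp2 (0.996) and Scamp3 (0.987), and 229 probes had r over 0.9. For Angptl4 they belonged to Cep97 (0.994), Tmem101 (0.977) and Ppp1ca (0.976), and 180 probes had r over 0.9. The 6 points share arrays, slides and scaling, so that many probes run alike over so few pools.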

How the data were processed

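Liver RNA pools of 2 mice were labelled with Cy3 (500 ng) and hybridised to 1-colour Agilent arrays of 45018 spots, 3 pools for each genotype. The scanner files (Agilent Feature Extraction 9.5, according to the submitters' processing notes) hold spot intensity that had been background-subtracted and detrended, per the file headers. A linear intensity for each probe is also found in the deposited value table. Other deposited values used were the 0 or 1 flags for signal well above background, outlier spots and saturation. Probe names and mm7 coordinates are those of the files, and symbols of further genes came from a RefSeq table (22951 of 41174 probes matched).

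Control and outlier spots were left out, spots of a probe averaged, and log2 intensity set against the 75th percentile of each array. Probes read well above background by all 3 arrays of either genotype were tested with limma 3.58.1 in R 4.3.3 (lmFit, eBayes, two-sided, threshold 0.05). P-values measure the spread between pools within a genotype. The 3 control pools shared 1 slide and LKO pools 1 and 2 another, so these p-values hold little of the spread between slides. With the slide as a random block, 11.2% of tested probes had an unadjusted limma p under 0.05, against 21.2% without it. In 10 simulations of this comparison with 200 of 23591 probes changed, the share recovered was 15.1% at 1.5-fold, 53.4% at 2-fold and 84.5% at 4-fold. The simulated arrays were independent and had no slides, unlike the real ones, so these shares need not hold for the real arrays. Precision is limited by having 6 arrays.

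The genes, the lists and the tests were chosen with earlier results of these data known. Genes named are all 9 with all their probes, Sirt1, the 3 of smallest p in each pathway list with any called, the adipose markers tested (named after their values were seen), and the 3 most alike probes for Fgf21, Klb and Angptl4. Of the genes so chosen, 1 is not reported here. The alternatives tried were normexp (offset 50), quantile normalization or median centring, other filters, outlier spots kept, the value table, a block for the slide or the replicate number, robust variance with a trend, the brightest probe per gene, and each pool left out. Same-numbered pools did not deviate together (correlations 0.01, -0.04 and -0.09), and the main fit does not pair them. Whether the numbers pair the pools cannot be settled from 3 pools of each genotype. Figures were drawn with matplotlib 3.10.9.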

Additional observations from a re-analysis of the deposited data

How the results depend on the processing

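No probe of the 9 genes was called under any of the 17 alternatives, and the lowest adjusted p among them was 0.0844 (Fgfr1 A_52_P668810 without LKO pool 3). Over all tested probes 15 were called in the scanner files with all pools. The count was 0 with normexp, without a filter on dim probes, with the slide as a random block (consensus correlation 0.312) and with the replicate number as a block, 24 with the brightest probe per gene, 49 with probes above background on all 6 arrays, 91 with robust variance and a trend, and 308 with the value table. Leaving out 1 pool gave 0 to 3 calls. The replicate block changed no call among the 9 genes. With it the adjusted p of limma was 0.198 for Fgfr2 A_52_P363110, 0.297 for A_51_P432403 and 0.316 for A_52_P158800, against 0.359, 0.68 and 0.604 in the main fit. Of the 327 comparisons of a probe's difference with its alternative, 25 reversed sign, none of them called in either form, and the cause was not tested. With the value table Fgf21 A_51_P315925 was -0.23, Fgf21 A_52_P235347 -0.13, Fgfr1 A_51_P109469 0.103, Fgfr2 A_52_P158800 0.0966 and Fgfr3 A_51_P237613 0.00185. With normexp Fgfr1 A_51_P109469 was 0.11, Fgfr2 A_52_P158800 0.067, Fgfr3 A_51_P237613 0.29, Fgfr4 A_52_P144363 0.00659, Ahsg -0.0136, Angptl6 A_51_P259571 -0.21 and Angptl6 A_52_P319199 -0.00166. Fgfr3 A_51_P237613 was 0.0145 with quantile normalization and 0.0111 with the slide as a random block. With 1 pool left out in turn, Fgf21 A_52_P235347 ran between -0.19 and 0.41, Fgfr1 A_51_P109469 between -0.196 and 0.041, Fgfr1 A_52_P136162 between -0.15 and 0.42, Fgfr2 A_51_P432403 between -0.546 and 0.0115, Fgfr2 A_52_P158800 between -0.555 and 0.0327, and Fgfr3 A_51_P237613 between -0.15 and 0.097. In alternatives chosen after seeing the data, the difference in the ratio of both Fgfr4 variant probes was -0.019 with the value table, -0.192 with normexp and -0.00933 with quantile normalization, and -0.016 to 0.0533 with 1 pool left out, while that of A_51_P408100 to A_52_P144363 was 0.21 with normexp.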
